A study of Homo sapiens with 18 samples.

Results

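The ADAR family of human genes has 3 members, ADAR (ENSG00000160710, encoding ADAR1), ADARB1 (ENSG00000197381, encoding ADAR2) and ADARB2 (ENSG00000185736, encoding ADAR3). They were taken by their Ensembl IDs, by family membership and not by a measured value, although earlier results of these data were known, and all 3 were found in every deposited table and passed its filter on low values, out of 20014 genes tested in all 4 tables. By RefSeq on GRCh38.p14, where all 3 symbols matched, ADAR spans chr1:154582057-154627997, ADARB1 chr21:45074578-45226563 and ADARB2 chr10:1177313-1737525. An antisense transcript, ADARB2-AS1, lies inside the ADARB2 span at chr10:1526630-1557008. The libraries were strand-specific, but the strand setting of the counting is not given in the sources used here, so reads of this pair cannot be told apart.

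ADAR proteins bind double-stranded RNA, and the catalytically active ones convert adenosine to inosine, which the ribosome and reverse transcriptase read as guanosine. ADAR1 is expressed in most tissues, has a longer form induced by interferon, and edits mainly repeat-derived RNA duplexes, which keeps cellular sensors from reading self RNA as foreign. ADAR2 is prominent in brain and recodes neuronal mRNAs, among them that of the glutamate receptor subunit GRIA2. ADAR3 is found mainly in brain, has no known editing activity, and carries an arginine-rich R-domain that can bind single-stranded RNA. In glioblastoma cells it has been described as competing with ADAR2 for GRIA2 RNA.

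The study expressed FLAG-tagged ADAR3 in U373-MG cells, a human glioblastoma line, and asked which RNA contacts of ADAR3 depend on the R-domain. Its groups were cells with an empty retroviral vector carrying drug resistance (control), cells with wild-type ADAR3 (ADAR3 WT) and cells with ADAR3 mutated in the R-domain (R-mutant), each with input and FLAG immunoprecipitate (IP) libraries from UV-crosslinked cells grown in G418. The 18 libraries form 6 groups of 3, and the labels do not say whether replicates are separate cultures or whether the transduced cells are pools or single clones, so the p-values reflect variation among these libraries alone, possibly technical. All groups also carry the endogenous ADARB2 gene, and the counts do not separate its RNA from that of the transgene.

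Levels and fold changes below are those of the authors' deposited tables unless marked as derived. A level is a mean of normalized counts, which scales with transcript length, so levels are compared within a gene and not between genes. Depth per library was not analysed here, and the deposited mean and standard error (SE) stand in for it. Members were called at a Benjamini-Hochberg adjusted p under 0.05 from a two-sided normal test of fold over SE. Astrocyte and glioblastoma markers were not checked, because the tables pair no IDs with symbols.

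ADARB2 was by far the most changed gene in the input RNA. In the authors' deposited table its mean over the input libraries was 16540 normalized counts. Its log2 fold change of ADAR3 WT versus control was 10.09 ± 0.34 (SE), which is 1093-fold with a 95% interval from 685-fold to 1742-fold (normal test adjusted p 7.88e-186). With equal numbers of libraries in both groups, that mean and fold correspond to a derived 33049 normalized counts in ADAR3 WT input and 30.2 in control input. Over the interval of the fold, the derived control level runs from 19.0 to 48.2. The next largest log2 fold change among all 20411 tested genes was 4.26. This is the gene that was transduced, so the value checks that the libraries compared differ in the transgene. It cannot tell ADAR3 WT input from R-mutant input, since both genotypes express ADAR3. It does not measure a response of the cells.

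ADAR did not differ detectably in the same libraries. In the authors' deposited table its input mean was 6887 normalized counts and its log2 fold change of ADAR3 WT versus control was -0.02 ± 0.16 (SE). The 95% interval ran from -0.33 to 0.29, so a change of 2-fold in either direction lies outside it. The derived input levels were 6940 in control and 6834 in ADAR3 WT. The SE was smaller than that of 481 of the 500 tested genes nearest in mean, whose median SE was 0.21.

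ADARB1 had the second-largest input difference of the family, and it did not pass the test across all genes. In the authors' deposited table its input log2 fold change was 0.67 ± 0.22 (SE) on an input mean of 5475 normalized counts, which is 1.59-fold with a 95% interval from 1.18-fold to 2.14-fold. The unadjusted p was 0.00243 and the adjusted p was 0.347 (normal test). The derived input levels were 4233 in control and 6716 in ADAR3 WT. Of all tested genes, 97.7% had a lower fold change. In all, 1 of 3 members was called in input, beside 0.289% of all tested genes, by the normal test and by the authors' adjusted p alike. Unadjusted p-values were under 0.05 in 2.92% of genes, below the nominal share (normal test). Fold changes were thus small beside the deposited standard errors, for a reason that was not tested. With the test statistic centred and divided by its robust spread over all genes, 0.657, ADARB1 passed with an adjusted p of 0.000982 (normal test). Dividing by a spread under 1 enlarges the statistics of all genes, and calls rose from 59 to 489 of 20411 genes.

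**Figure D1:**
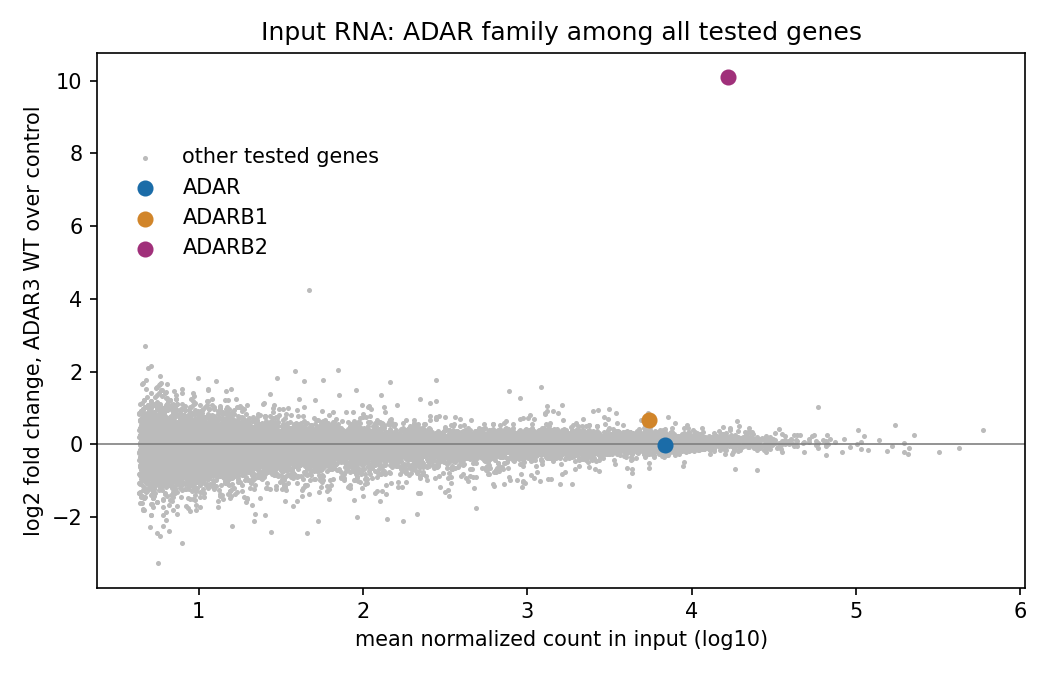
Log2 fold change of ADAR3 WT versus control input (vertical) against mean normalized count (horizontal, log10) for all 20411 tested genes, from the authors' deposited table. ADARB2 stands alone at 10.09, ADARB1 lies above the bulk of genes of like mean at 0.67, and ADAR lies at -0.02.

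A value of IP enrichment is taken here to be IP over input in the first-named genotype, divided by IP over input in the second. The labels do not state this reading. The 3 IP tables hold only 2 independent contrasts: for the 13284 genes whose mean reached 50 in all tables, the fold of R-mutant versus control equalled the sum of the other 2 folds up to a constant of 0.01 (SD 0.0025 across genes). For ADAR, ADARB1 and ADARB2 the remainder was 0.01, 0.01 and 0.02. Both comparisons against control also share the control libraries, so their similar values are not independent of each other.

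The mRNA of ADAR did not differ detectably in IP enrichment between any of the genotypes. In the authors' deposited tables its log2 IP enrichment was -0.14 ± 0.18 (SE) in ADAR3 WT versus control, with a 95% interval from -0.49 to 0.22 and a normal test adjusted p of 0.714. In R-mutant versus control it was -0.21 ± 0.20 (SE), with an interval from -0.60 to 0.18 and an adjusted p of 0.567 (normal test). In R-mutant versus ADAR3 WT it was -0.09 ± 0.16 (SE), with an interval from -0.39 to 0.21. None of these intervals reaches a 2-fold difference.

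The mRNA of ADARB1, the editing enzyme most studied in neuronal recoding, gave values close to 0 as well. Its log2 IP enrichment in the authors' deposited tables was -0.05 ± 0.19 (SE) in ADAR3 WT versus control, with a 95% interval from -0.42 to 0.32 and a normal test adjusted p of 0.912. It was 0.02 ± 0.21 (SE) in R-mutant versus control, with an interval from -0.38 to 0.43 and an adjusted p of 0.962 (normal test). In R-mutant versus ADAR3 WT it was 0.06 ± 0.16 (SE), with an interval from -0.25 to 0.37. The sign in R-mutant versus control turned to -0.0037 when the median of all genes was subtracted.

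The deposited IP enrichment of ADARB2, the gene of the precipitated protein itself, was lower with both proteins than in control. In ADAR3 WT versus control its log2 value in the authors' deposited table was -3.01 ± 0.75 (SE), with a 95% interval from -4.47 to -1.55 (normal test adjusted p 0.00106). In R-mutant versus control it was -2.58 ± 0.79 (SE), with an interval from -4.14 to -1.03 (normal test adjusted p 0.0129). Its SE in each of these tables exceeded that of all 500 tested genes nearest in mean, whose largest SE was 0.34 and 0.35. The denominator of both ratios is the control, which holds no transgene and where the derived input level was 30.2 normalized counts. No control IP level was available by itself, and how the low control input level bears on these values was not tested. A depletion of the transgene RNA in the IP was not tested. With the same rescaling of the statistic as in input, neither value passed, with adjusted p of 0.208 and 0.450 (normal test).

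Between the 2 ADAR3 proteins, a comparison with no control in its name, the ADARB2 value was 0.41 ± 0.27 (SE) for R-mutant versus ADAR3 WT in the authors' deposited table. The 95% interval ran from -0.12 to 0.93 and so excluded a 2-fold difference, and the adjusted p was 1.00 (normal test; unadjusted p 0.128). Of the 500 genes nearest in mean, 488 had a smaller SE.

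Calls among the members are to be read against the calls over all genes. In ADAR3 WT versus control 1 of 3 members was called, ADARB2, beside 14.1% of all tested genes. In R-mutant versus control 1 of 3 was called, again ADARB2, beside 13.3%. In R-mutant versus ADAR3 WT 0 of 3 were called, beside 0.00428% of all genes (normal test), where 0.624% of all genes and 0 of 3 members had an unadjusted p under 0.05. By the authors' adjusted p the counts of members were 2, 1 and 2 in the same order, beside 43.0%, 40.8% and 51.1% of all genes.

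**Figure D2:**
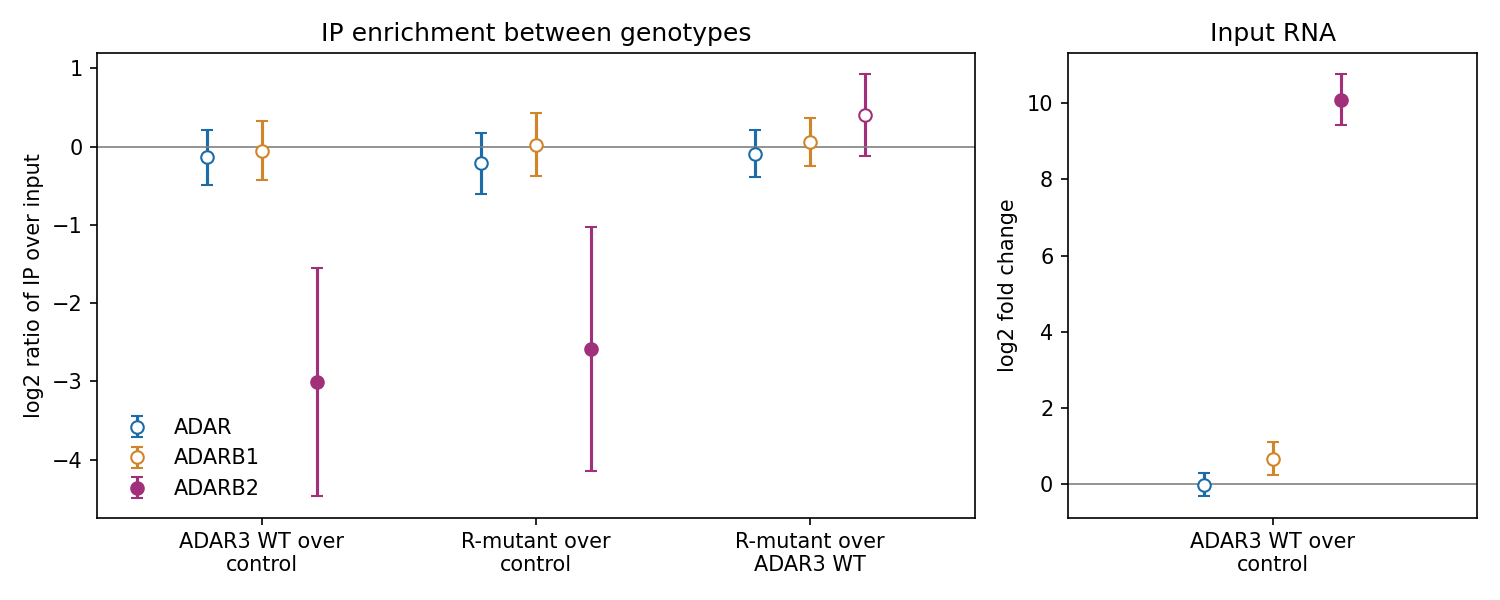
Log2 values (vertical) of ADAR, ADARB1 and ADARB2 in the 3 comparisons of IP enrichment (left) and in input (right, on its own axis), from the authors' deposited tables. Points are fold changes, bars are 95% intervals, and filled points passed the normal test at an adjusted p under 0.05. ADAR and ADARB1 span 0 in all 3 IP comparisons, while ADARB2 lies at -3.01 and -2.58 against control and spans 0 between the ADAR3 proteins.

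ADARB1 passed the authors' adjusted p in the tables named for ADAR3 WT, as did much of the transcriptome. The authors' p-values in the IP tables match a likelihood ratio test with 7 degrees of freedom, which covers more terms than the fold change beside it. For ADARB1 the authors' deposited statistic was 67.2 in ADAR3 WT versus control and 115 in R-mutant versus ADAR3 WT, with adjusted p of 6.02e-11 and 9.53e-21. In R-mutant versus control, the one table with no ADAR3 WT in its name, it was 15.4, with an adjusted p of 0.0721. Among the 500 genes nearest in mean the median statistic was 25.5, 44.9 and 22.7 in the same order, so ADARB1 was above that median in the first pair of tables and below it in the last. All 3 values lay inside the range from the 10th to the 90th percentile of those genes, which reached 96.0, 195 and 91.3. For ADAR the authors' statistic was 4.0, 15.3 and 8.63, each below the median of genes of like mean, and its adjusted p was 0.869, 0.0611 and 0.427. The first value also lay below the 10th percentile of those genes, 7.31, and the others lay above theirs, 9.20 and 6.99.

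The mean level of ADARB1 followed the same division. The means come from the same counts as the authors' statistics, so they are not separate evidence. In the authors' deposited tables its mean was 5264 normalized counts in ADAR3 WT versus control and 5496 in R-mutant versus ADAR3 WT, but 3728 in R-mutant versus control. The means of ADAR in the same tables were 5733, 5744 and 5194. The mean of ADARB1 divided by that of ADAR, which is free of any scale between tables, was thus 0.918 and 0.957 in the tables named for ADAR3 WT and 0.718 in the other.

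These means were turned into a level per genotype. The calculation takes each table's mean as that of 2 genotypes with equal numbers of libraries, input and IP together, after setting the median ratio between tables to 1. The libraries of each model are not stated, so this reading was examined on the same 13284 genes. After the rescaling no gene received a level below 0, and without it 1 gene did, ADARB2. Levels above 0 do not settle which libraries each model held. Across genes, the derived log2 ratio of ADAR3 WT versus control followed the input fold change with a slope of 0.93 and a Spearman correlation of 0.505, 2 measures that share the input libraries. No input fold change of R-mutant was available, so the derived R-mutant levels were not checked in this way. The derived levels have no error of their own and carry no test.

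For ADARB1 the derived level was 4130 normalized counts in control, 6397 in ADAR3 WT and 3987 in R-mutant. By these point values, which have no error, ADAR3 WT was the highest genotype, and control and R-mutant lay close together. The tested input difference of ADARB1 between ADAR3 WT and control was not called (normal test adjusted p 0.347). The derived log2 ratio was 0.63 for ADAR3 WT versus control, where all genes ran from -0.41 at the 10th percentile to 0.44 at the 90th. Of the other 13283 genes, 618 lay higher. Without the rescaling this ratio was 1.01, with 887 genes higher, where the median of all genes was 0.39. For R-mutant versus ADAR3 WT the ratio was -0.68, with 19 of the other 13283 genes lower and the same percentiles at -0.17 and 0.26. Without the rescaling of tables it was -0.83, with 23 genes lower, while the median of all genes moved from 0 to -0.22. The ratio of R-mutant versus control was -0.05, and 0.18 without the rescaling, where the median of all genes was also 0.18. Its IP enrichment, by contrast, was near 0 between all genotypes. An effect of wild-type ADAR3 and a trait of the particular ADAR3 WT cells cannot be told apart, since the labels do not say how many independent transductions each genotype holds.

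For ADAR the derived levels were 5961 in control, 5504 in ADAR3 WT and 5348 in R-mutant. Its log2 ratios were -0.12, -0.16 and -0.04 for ADAR3 WT versus control, R-mutant versus control and R-mutant versus ADAR3 WT, and 37.1%, 30.8% and 37.1% of genes lay lower. Without the rescaling the first of these became 0.28 and the second 0.01, where the medians of all genes were 0.39 and 0.18. ADAR thus lay below the median of all genes under both scalings, but inside the range from the 10th to the 90th percentile for each ratio. The rescaling moves most genes alike, so the scalings are not separate checks of this position.

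For ADARB2 the derived levels were 25518 in ADAR3 WT and 28838 in R-mutant. The log2 ratio of R-mutant versus ADAR3 WT was 0.18, and 0.05 without the rescaling, with no error to set beside it. The derived control level is a small difference of large means. It was 159 normalized counts, 76.0 when only genes with a mean of at least 500 set the scale, and below 0 without rescaling, so no ratio to control is drawn from it.

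**Figure D3:**
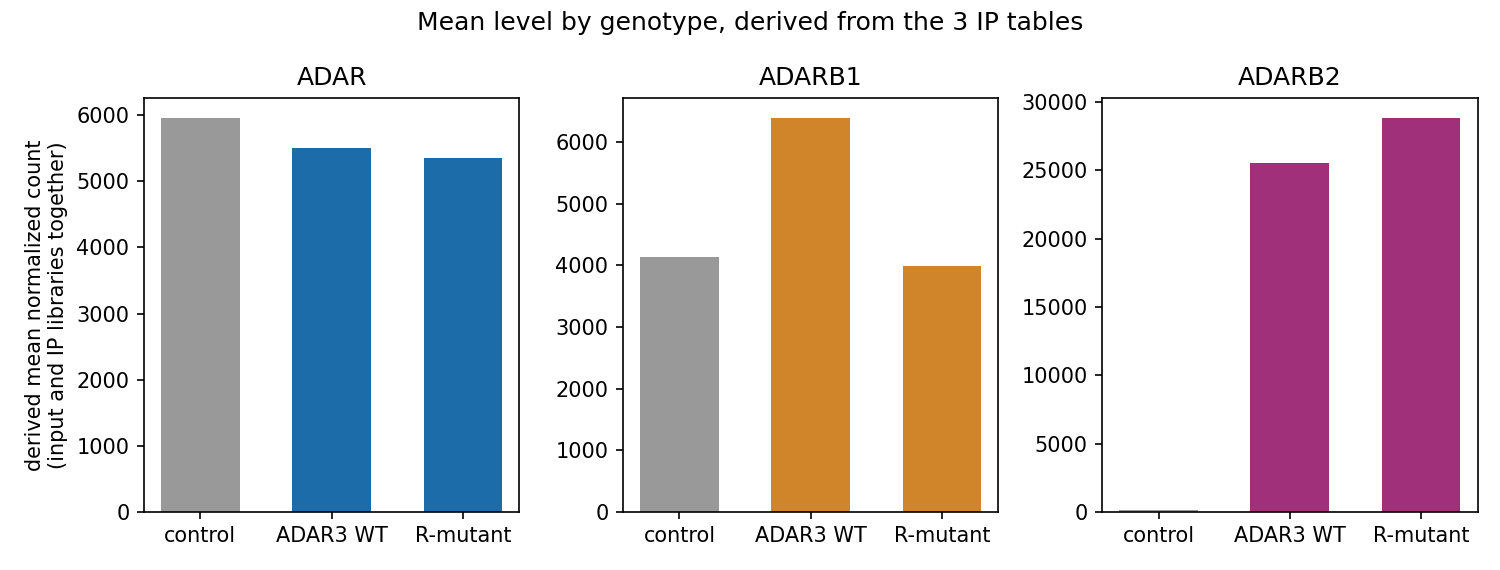
Derived mean normalized count (vertical, a separate axis from 0 for each gene) of ADAR, ADARB1 and ADARB2 in control, ADAR3 WT and R-mutant, over input and IP libraries together. ADARB1 is highest in ADAR3 WT at 6397 and similar in control and R-mutant, ADAR differs little between genotypes, and ADARB2 is high in both genotypes that express ADAR3; there are no error bars because the derivation gives none.

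Genes with a pattern like that of each member were sought as a description. Likeness was the Euclidean distance over the 4 deposited log2 fold changes, among 13283 other genes whose mean reached 50 in all tables. ADAR had 1560 genes within a distance of 0.25, and the nearest was ENSG00000177082 at 0.0194. ADARB1 had 22, the nearest of them ENSG00000147459 at 0.0765, whose input fold was 0.59 on the log2 scale in the authors' deposited table. No likeness is drawn for ADARB2, whose distance to every gene is set by the input fold of the transgene.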

How the data were processed

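Per the submitters' processing notes, the tools were featureCounts, DESeq2 and STAR 2.7.7a, on GRCh38. Per the file headers, the authors deposited a mean signal of normalized counts, a log2 fold change with its SE on the log2 scale, a test statistic (a score with no fixed range) and its p-value with an adjusted p-value. Model formulas, the libraries in each model and the gene annotation are not given in these sources. The 6 per-library columns of the input table have names that match no label and were not used. The input test planned on them was therefore not run.

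The normal test of fold over SE was adjusted over all genes with a deposited adjusted p-value, with 3 libraries per group, and 95% intervals come from the same SE. The derived levels were chosen after seeing the data. The members were taken by family membership, and they, the lists and the tests were chosen with earlier results of these data known. The lists of ADAR regulators, transport factors, neighbouring and interferon-induced genes and cell type markers were not used, because the annotation table gave an Ensembl ID for 0 genes. Every comparison names the 3 members, and the nearest gene by likeness where it lay within 0.25. Python 3.11.15, numpy 2.4.6, pandas 2.3.3, scipy 1.17.1 and matplotlib 3.10.9 were used.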

Additional observations from a re-analysis of the deposited data

How the results depend on the processing

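No paired analysis was possible because no column of single libraries could be matched to a label. For the same reason the planned count fits, pseudocounts and fits without 1 library were not run. Of 72 combinations of a member, a comparison and a setting, 65 kept direction where called and side of the threshold. By the authors' adjusted p, which tests more terms than the fold, ADARB1 passed at -0.051 in ADAR3 WT versus control and at 0.062 in R-mutant versus ADAR3 WT, where ADARB2 passed at 0.41, giving 2 members in each. At the stricter adjusted p under 0.01, ADARB2 at -2.58 in R-mutant versus control did not pass (0 members). Rescaled to the spread across genes, ADARB2 did not pass at -3.01 or -2.58 (0 members each), and ADARB1 passed in input at 0.67 (2 members). The robust spread of fold over SE was 1.59 and 1.60 in the tables against control, 0.605 between the ADAR3 proteins and 0.657 in input. That spread holds true differences as well as error, so rescaling is strict in the first pair. Over all genes, rescaling changed the calls from 2986 to 428 in ADAR3 WT versus control, from 2814 to 335 in R-mutant versus control, from 1 to 78 between the ADAR3 proteins and from 59 to 489 in input. In the same order, an adjusted p under 0.01 left 1823, 1681, 1 and 37. Among genes whose mean reached 50, R-mutant versus ADAR3 WT had 2 calls, none of them a member. Depth per library is unknown, and the ADARB2 values against control rest on a control with a low derived input level.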
